A study of Homo sapiens with 12 samples.

Results

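The genes described here are ATF4, DDIT3 (which encodes CHOP), ATF3, TRIB3, CHAC1, DDIT4, SESN2, NUPR1, GDF15 and ATF5. They were chosen by name as the transcription factors and the stress-induced targets of the ATF4 and CHOP branch of the integrated stress response. Earlier results of these data were known when they were chosen. All 10 were found among the 20263 genes of the table, and all 10 were among the 14287 genes that passed the filter on low counts. RNA-seq was carried out in A375, an established human melanoma cell line labelled as wild type and as skin tumor, in 4 groups of 3 libraries. The Ctrl group received no compound that the labels name, the DBIC group received DBIC, the Hemin group received hemin, and the DBIC+Hemin group received both. DBIC is the label for dodecyl 1H-benzo[d]imidazole-5-carboxylate, which the study writes as DdBIC and describes as a ligand of the nuclear receptor Nur77. Hemin is a soluble form of heme, and the study used it to ask whether supplied heme counters effects of the compound. The dose and the time of the sequenced samples were not given in the sources used here. All libraries came from this 1 cell line, and neither the labels nor the study's account of its sequencing says whether the 3 libraries of a group were separate cultures, although its general statement on statistics speaks of independent experiments. The p-values therefore measure the spread between these libraries, which may be technical.

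In the integrated stress response, kinases that sense different stresses phosphorylate the translation factor eIF2, which slows general translation while the ATF4 mRNA is translated more. ATF4 protein then switches on genes of amino acid supply and a further layer of regulators, among them CHOP and ATF3, and CHOP in turn is linked to cell death when the stress lasts. Because ATF4 is controlled largely at translation, its mRNA level is not a measure of ATF4 protein, and the levels below are of mRNA only. In bulk RNA, a change in the number of cells that express a gene cannot be told apart from a change in RNA per cell.

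The libraries held 37951275 to 44358912 counts. SOX10, a transcription factor of the melanocyte lineage, stood at 548 to 769 CPM (counts scaled to library size with TMM factors), and PAX3, MITF and S100B were also detected, whereas the pigment genes PMEL, MLANA, TYR, TYRP1 and DCT stood at no more than 1.11 CPM in any library. Of 7 markers of other cell types, the leukocyte gene PTPRC had 0 counts in all 12 libraries, which allows up to 3 counts per library, and KRT5, CD3E and EPCAM stood at no more than 0.246 CPM. The collagen gene COL1A1 stood at 1.44 to 3.02 CPM, DCN at 0.591 to 1.83 and PECAM1 at 0.346 to 0.994, and their part in the results was not tested. HMOX1, the heme-degrading enzyme that heme is known to induce, served as a check of the hemin labels: it averaged 8.71 CPM ± 0.632 in Ctrl, 7.82 ± 0.795 with DBIC, 63.2 ± 2.0 with hemin and 169 ± 21.4 with both (SD, n = 3). The 13 protein genes of the mitochondrial genome took 2.90 to 3.10% of counts in Ctrl, 2.42 to 2.99% with DBIC, 3.10 to 3.18% with hemin and 3.08 to 3.43% with both.

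The genes lie on several chromosomes of GRCh38 (GENCODE 29). ATF4 spans chr22:39519695-39522685, ATF3 chr1:212565334-212620777, SESN2 chr1:28259527-28282491, DDIT4 chr10:72273920-72276036 and CHAC1 chr15:40952962-40956519. TRIB3 spans chr20:362835-397559, GDF15 chr19:18374731-18389176 and NUPR1 chr16:28532708-28539174. DDIT3, on the minus strand at chr12:57516588-57520517, shares 982 bases with MARS on the opposite strand. ATF5, at chr19:49928702-49933935, is overlapped on the opposite strand by AC011452.1 over all of its 5234 bases, by NUP62 over 1043 and by IL4I1 over 838. Whether the counting used strand was not given in the sources used here, so DDIT3 and ATF5 counts may include reads of these partners. ATF4 has processed pseudogenes elsewhere in the genome, and how reads shared with them were counted was not given either. MARS stood at 320 CPM ± 22.8 in Ctrl and 305 ± 9.36 with DBIC (SD, n = 3), with an edgeR adjusted p of 0.540.

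The 250 bases before the transcription start were read from RefSeq (GRCh38.p14) for 9 of the 10 genes, in 16 windows, since several genes have more than 1 start. The windows of ATF4 overlap each other, as do those of TRIB3 and of DDIT3, so the 16 are not independent. Sequence farther upstream was not searched. The motifs below were searched on both strands: TGATGNAA, the core of the composite element that ATF4 and C/EBP proteins bind, TGACGTCA, the cyclic AMP response element, and TGANTCA, the AP-1 element. TGATGNAA was found before CHAC1 and before the upstream start of ATF3, that is in 2 of the 16 windows, and in 3.14% of all 35116 promoter windows of the same length. TGANTCA was found in 3 of the 16 windows and in 6.57% of all promoter windows. These were both windows of DDIT3, whose starts lie 3 bases apart so that they hold the same match, and the window before the first start of ATF5. TGACGTCA was found in 0 of the 16 and in 1.65% of all promoter windows, and no match overlapped another. For each of the 4 genes with a match, 1 window is shown, with the match in capitals, so that the elements can be compared. They are CHAC1 at chr15:40953221-40953470 (plus strand), ATF3 at chr1:212565157-212565406 (plus), DDIT3 at chr12:57520515-57520764 (minus) and ATF5 at chr19:49928656-49928905 (plus).
CHAC1: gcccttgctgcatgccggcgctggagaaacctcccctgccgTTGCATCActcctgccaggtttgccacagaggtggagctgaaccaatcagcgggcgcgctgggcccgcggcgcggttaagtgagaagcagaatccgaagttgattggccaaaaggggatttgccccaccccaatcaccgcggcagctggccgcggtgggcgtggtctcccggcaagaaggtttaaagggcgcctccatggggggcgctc
ATF3: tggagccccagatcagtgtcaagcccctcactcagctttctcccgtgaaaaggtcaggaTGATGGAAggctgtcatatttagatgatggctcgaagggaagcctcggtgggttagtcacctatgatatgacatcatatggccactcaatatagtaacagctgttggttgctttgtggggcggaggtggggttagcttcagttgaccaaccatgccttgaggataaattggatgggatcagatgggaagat
DDIT3: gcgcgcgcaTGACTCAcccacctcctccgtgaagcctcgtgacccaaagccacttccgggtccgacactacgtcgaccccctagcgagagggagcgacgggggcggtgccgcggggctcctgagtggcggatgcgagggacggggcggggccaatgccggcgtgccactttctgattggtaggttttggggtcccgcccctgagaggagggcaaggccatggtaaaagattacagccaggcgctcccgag
ATF5: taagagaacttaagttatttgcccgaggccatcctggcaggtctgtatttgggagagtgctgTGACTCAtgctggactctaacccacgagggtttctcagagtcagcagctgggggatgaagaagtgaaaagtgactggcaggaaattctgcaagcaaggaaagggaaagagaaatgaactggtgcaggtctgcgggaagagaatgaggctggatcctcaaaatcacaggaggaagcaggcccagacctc
In CHAC1 the match TTGCATCA lies at -209 to -202 from the start and reads TGATGNAA on the other strand, and in ATF3 the match TGATGGAA lies at -191 to -184. The match TGACTCA lies at -241 to -235 in DDIT3 and at -188 to -182 in ATF5. A match of letters is a description of the window and not evidence of binding.

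Length-scaled levels, in TPM, were used to rank the genes against each other. In Ctrl, ATF4 was the most abundant at 572 TPM ± 82.0, followed by DDIT4 at 213 ± 1.96, TRIB3 at 82.6 ± 3.12 and ATF5 at 70.4 ± 1.78 (SD, n = 3). Below them stood DDIT3 at 29.1 TPM, SESN2 at 26.0, GDF15 at 19.4, CHAC1 at 15.9 and ATF3 at 8.58, and NUPR1 was lowest at 0.777. The library ranges of DDIT3 and SESN2 overlapped in Ctrl, as did those of GDF15 and CHAC1 and those of CHAC1 and ATF3, so these neighbours were not separated. With DBIC the order was different: DDIT4 led at 1072 TPM ± 87.7, above ATF4 at 831 ± 26.5, and the ranges of these genes did not overlap. DDIT3 followed at 281 TPM ± 86.7 and then ATF3 at 186 ± 77.5, although the ranges of DDIT3 and ATF3, of ATF3 and TRIB3, and of TRIB3 and SESN2 overlapped, as did those of CHAC1 and ATF5 lower in the order. With both agents, ATF4 was again first at 814 TPM ± 89.7, followed by DDIT4 at 381 ± 11.7 and TRIB3 at 170 ± 41.2, while ATF3 stood at 27.2 ± 0.263 and CHAC1 at 28.2 ± 4.49. The range of ATF3 lay inside that of CHAC1, the ranges of SESN2, GDF15 and DDIT3 overlapped one another, and that of ATF5 lay inside that of DDIT3, so these ranks were not separated.

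The TPM scale has a limit for several of these genes. The transcript length implied by counts and FPKM should be constant for a gene, but it ran from 1699 to 2202 bases between libraries for ATF4 and from 1039 to 6791 for NUPR1. The highest implied length was 1.19 times the lowest for CHAC1, 1.14 times for ATF3, 1.10 for TRIB3, 1.07 for ATF5 and 1.05 for DDIT3. For DDIT4, SESN2 and GDF15 it was at most 1.01 times the lowest. The comparisons below therefore rest on counts, tested with edgeR's quasi-likelihood F test over the 12 libraries and adjusted by Benjamini-Hochberg over all 14287 genes. A gene is called where the adjusted p is below 0.05, and ± after a log2 fold change is its standard error.

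The first comparison, DBIC against Ctrl, asks what the compound did to these genes. It gave 7 genes called higher, namely ATF4, DDIT3, ATF3, CHAC1, DDIT4, SESN2 and GDF15, and 0 were called lower. Of all genes tested, 20.0% were called higher and 17.2% lower in this comparison. Among the 10 genes, 6 were called and changed by at least 1 on the log2 scale, as were 3.51% of all genes. Each count of 0 in a given direction, here and below, was also 0 at an unadjusted p below 0.05 and with DESeq2. The median log2 fold change of the 10 genes was 1.77, beside -0.0082 over all genes.

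ATF4, the transcription factor at the head of the pathway, stood at 457, 470 and 461 CPM in the 3 Ctrl libraries and at 765, 725 and 721 with DBIC. The groups did not overlap, with a log2 fold change of 0.67 ± 0.031 (1.59-fold, edgeR adjusted p = 3.30e-08). DDIT3, which encodes the pro-death transcription factor CHOP, stood at 13.1, 9.37 and 15.8 CPM in Ctrl and at 164, 85.8 and 119 with DBIC. The lowest DBIC library was well above the highest Ctrl library, and the log2 fold change was 3.27 ± 0.28 (9.66-fold, edgeR adjusted p = 1.78e-05). ATF3, a bZIP factor induced by many stresses, had 9.80, 6.07 and 7.78 CPM in Ctrl and 245, 174 and 89.5 with DBIC. It had the largest fold change of the 10 genes, at 4.42 ± 0.39 on the log2 scale (21.5-fold, edgeR adjusted p = 2.43e-05), and the DBIC libraries themselves differed by 2.74-fold. ATF5, a bZIP factor of the same family that is also regulated at translation, had 57.6, 56.3 and 58.5 CPM in Ctrl and 59.1, 58.8 and 56.1 with DBIC. These ranges overlapped, and the log2 fold change was 0.013 (95% confidence interval -0.11 to 0.13).

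The targets of these factors differed widely in response. DDIT4, which encodes the mTORC1 inhibitor REDD1, had 180, 178 and 178 CPM in Ctrl and 921, 826 and 958 with DBIC. This was a log2 fold change of 2.33 ± 0.054 (5.05-fold, edgeR adjusted p = 2.02e-10), with tight libraries in both groups. SESN2, a sestrin that senses leucine and restrains mTORC1, had 40.4, 44.4 and 44.5 CPM in Ctrl and 217, 199 and 199 with DBIC. Its log2 fold change was 2.25 ± 0.060 (4.76-fold, edgeR adjusted p = 5.11e-10). CHAC1, a glutathione-degrading enzyme, had 13.6, 14.7 and 6.35 CPM in Ctrl, where replicate 3 lay below the other two, and 50.3, 47.8 and 58.1 with DBIC. It rose by 2.17 ± 0.26 on the log2 scale (4.50-fold, edgeR adjusted p = 0.000123). GDF15, a secreted stress cytokine, had 10.8, 12.3 and 10.5 CPM in Ctrl and 29.8, 30.8 and 26.8 with DBIC, a log2 fold change of 1.38 ± 0.12 (2.60-fold, edgeR adjusted p = 6.23e-06).

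TRIB3 and NUPR1 were not called. TRIB3, a pseudokinase that is induced by CHOP and ATF4 and feeds back on them, had 95.2, 92.9 and 85.1 CPM in Ctrl and 218, 122 and 128 with DBIC. The groups did not overlap, but DBIC replicate 1 stood apart from the other two, and the adjusted p was 0.0592 (edgeR) at a log2 fold change of 0.78 ± 0.28. TRIB3 was called with DESeq2 (adjusted p = 0.0242) and, in edgeR, without DBIC replicate 2 (0.0481), Hemin replicate 2 (0.0497) or DBIC+Hemin replicate 2 (0.0439). Without DBIC replicate 1 its log2 fold change was 0.45 (adjusted p = 0.210). NUPR1, a small stress-induced chromatin protein, was low, with 14 to 43 counts per library. It had 0.596, 0.453 and 0.563 CPM in Ctrl and 0.695, 0.344 and 0.426 with DBIC (log2 fold change -0.14, 95% confidence interval -0.79 to 0.50).

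The addition of hemin to DBIC asks whether supplied heme moved these levels back. In DBIC+Hemin against DBIC, 7 of the 10 genes were called lower, namely ATF4, DDIT3, ATF3, CHAC1, DDIT4, SESN2 and ATF5, and 0 higher. Of all genes, 18.4% were called lower and 13.5% higher. With a log2 change of at least 1 in either direction, 5 of the 10 genes and 2.26% of all genes were called. The median log2 fold change was -0.84, beside -0.010 over all genes. The comparisons share libraries, here those of DBIC with DBIC against Ctrl, so their values are given side by side and not as independent evidence.

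DDIT3 had 18.2, 26.2 and 28.0 CPM with both agents, all below the lowest DBIC library of 85.8, a log2 difference of -2.35 ± 0.27 (edgeR adjusted p = 0.000161). ATF3 had 26.6, 26.4 and 25.8 CPM with both, at -2.69 ± 0.35 (edgeR adjusted p = 0.000421), and these libraries were nearly equal where the DBIC libraries were not. CHAC1 had 18.9, 21.8 and 18.8 CPM, at -1.39 ± 0.25 (edgeR adjusted p = 0.00209). In each of these genes, every library with both agents lay below every DBIC library and above every Ctrl library. DDIT4 had 337, 330 and 316 CPM with both, at -1.46 ± 0.052 (edgeR adjusted p = 1.12e-08), and SESN2 had 104, 102 and 93.5, at -1.04 ± 0.058 (edgeR adjusted p = 2.38e-07). Both genes also stayed above their Ctrl libraries.

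ATF4 fell less, to 623, 597 and 634 CPM with both agents, a log2 difference of -0.25 ± 0.031 (edgeR adjusted p = 9.24e-05). This call depends on the unit. In TPM, ATF4 ran from 815 to 861 with DBIC and from 712 to 880 with both, which overlapped, and limma on log2(TPM + 1), an alternative added after the data were seen, gave -0.035 ± 0.097 with an adjusted p of 0.834. The cause of this difference between units was not tested. ATF5, which was not called with DBIC alone, fell to 35.4, 39.9 and 36.3 CPM, at -0.64 ± 0.054 (edgeR adjusted p = 6.94e-06), and on the TPM scale it fell by 0.74. GDF15 was not called and had 34.4, 27.3 and 36.6 CPM with both agents, which overlapped with the DBIC libraries (log2 fold change 0.17, 95% confidence interval -0.091 to 0.43). TRIB3 had 237, 144 and 229 CPM, overlapping with DBIC (log2 fold change 0.38, 95% confidence interval -0.25 to 1.02).

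Hemin alone was compared with Ctrl as the background for these values. SESN2, GDF15 and ATF4 were called higher and 0 genes lower, beside 1.47% of all genes called higher and 2.59% lower. None of the 10 was called in edgeR with a log2 change of at least 1, as against 0.112% of all genes, although TRIB3, described below, changed by 1.09 and passed DESeq2 and an unadjusted edgeR p (0.00394). SESN2 had 70.0, 77.0 and 71.4 CPM with hemin, at 0.76 ± 0.058 (1.69-fold, edgeR adjusted p = 5.98e-05). GDF15 had 16.0, 20.4 and 18.2 CPM, at 0.70 ± 0.12 (1.62-fold, edgeR adjusted p = 0.00819), and neither gene overlapped with Ctrl. ATF4 had 503, 521 and 507 CPM, at 0.14 ± 0.031 (edgeR adjusted p = 0.0257). That call was lost without any Ctrl or Hemin library (adjusted p up to 0.111) and in TPM, where the log2 fold change was 0.029. TRIB3 had 215, 141 and 228 CPM with hemin, a log2 fold change of 1.09 ± 0.28 that missed the threshold (edgeR adjusted p = 0.0712) and passed it with DESeq2 (0.00533) or without DBIC replicate 1 (0.0403). DDIT4 had 195, 212 and 209 CPM, above the 3 Ctrl libraries, at 0.20 ± 0.051 (edgeR adjusted p = 0.0544), and it was called in 6 alternatives (adjusted p 0.0151 to 0.0488), including those without DBIC replicate 2, DBIC replicate 3 or Hemin replicate 1. DDIT3 had 18.5, 18.4 and 18.2 CPM, above the 3 Ctrl libraries (log2 fold change 0.53, edgeR adjusted p = 0.379), ATF3 12.8, 9.37 and 7.45 and CHAC1 12.3, 12.1 and 14.1, and neither ATF3 nor CHAC1 separated from Ctrl. NUPR1 had 1.09, 0.841 and 1.07 CPM, with a log2 fold change of 0.89 that was not called (edgeR adjusted p = 0.114) and that turned to -0.30 in TPM. With both agents it had 0.791, 0.621 and 0.547 CPM.

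DBIC+Hemin against Hemin gives the effect of the compound where hemin was present. It gave 5 genes called higher, namely ATF4, ATF3, DDIT4, SESN2 and GDF15, and 1, ATF5, was called lower, beside 3.71% of all genes higher and 3.09% lower. With a log2 change of at least 1, ATF3 alone of the 10 was called, beside 0.322% of all genes. GDF15 rose by 0.85 ± 0.12 on the log2 scale, DDIT4 by 0.67 ± 0.051, SESN2 by 0.45 ± 0.058 and ATF4 by 0.28 ± 0.031. ATF3 rose by 1.41 ± 0.36 (edgeR adjusted p = 0.0486), a call near the threshold that was lost with no filter on low counts and without any library other than DBIC replicate 1 or 3, with adjusted p up to 0.158 without Hemin replicate 3. ATF5 fell by 0.61 ± 0.054 (edgeR adjusted p = 8.69e-05), from 55.3, 60.5 and 54.3 CPM with hemin. DDIT3 was not called, at 0.40 (95% confidence interval -0.20 to 0.99), nor was CHAC1, at 0.63 (edgeR adjusted p = 0.193). CHAC1 was called with the 2 groups alone (0.0150) and without Ctrl replicate 3 (adjusted p = 0.00404).

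Against Ctrl, the group with both agents had ATF4, ATF3, TRIB3, DDIT4, SESN2 and GDF15 called higher, 6 of the 10, and ATF5 called lower. Over all genes, 5.66% were called higher and 6.74% lower. With a log2 change of at least 1, 4 of the 10 and 0.574% of all genes were called. GDF15 stood 2.92-fold above Ctrl and SESN2 2.31-fold, at log2 fold changes of 1.55 ± 0.12 and 1.21 ± 0.058. DDIT4 was 1.83-fold and ATF4 1.34-fold above Ctrl. ATF3 was 3.33-fold above, at 1.74 ± 0.36 (edgeR adjusted p = 0.0136), and this call was lost without Ctrl replicate 2 (adjusted p = 0.0557) or Ctrl replicate 3 (0.0531). TRIB3, at 1.16 ± 0.28 (edgeR adjusted p = 0.0293), lost its call without any 1 of the Ctrl libraries or without replicate 1 or 3 of the group with both agents (adjusted p up to 0.0978). DDIT3 missed the threshold at 0.92 ± 0.27 (edgeR adjusted p = 0.0547) and passed it with DESeq2 (0.000788), without DBIC replicate 1 or 2 or without replicate 1 of the group with both agents (adjusted p 0.0303 to 0.0449). CHAC1 missed it at 0.78 ± 0.25 (edgeR adjusted p = 0.0783) and passed it with DESeq2 (0.00645) and without Ctrl replicate 3 (log2 fold change 0.49, adjusted p = 0.0198).

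The interaction term tests directly whether the effect of DBIC differed with and without hemin. It was called below 0 for ATF4, DDIT3, ATF3, CHAC1, DDIT4, SESN2 and ATF5, 7 of the 10, and above 0 for none, in edgeR, while 10.2% of all genes were called below 0 and 6.40% above. Of the 10 genes, 5 were called at a log2 value of at least 1 in size, beside 1.95% of all genes. The difference was -3.01 ± 0.50 for ATF3 (edgeR adjusted p = 0.00350) and -2.87 ± 0.38 for DDIT3 (edgeR adjusted p = 0.000810). It was -1.80 ± 0.082 for SESN2, -1.66 ± 0.073 for DDIT4 and -1.54 ± 0.35 for CHAC1. For ATF5 it was -0.62 ± 0.077, where DBIC had no called effect alone and lowered the level beside hemin. For ATF4 it was -0.40 ± 0.043 in counts (edgeR adjusted p = 0.000110) but -0.064 ± 0.14 in TPM (limma adjusted p = 0.831), so the difference in ATF4 mRNA rests on the counts. GDF15 gave -0.53 ± 0.17 (edgeR adjusted p = 0.0542) and was called in 5 alternatives, the fits without Ctrl replicate 2, without Hemin replicate 1 and without replicate 3 of the group with both agents among them (adjusted p 0.0256 to 0.0496 over the 5). TRIB3 gave -0.71 ± 0.40 (edgeR adjusted p = 0.285) and NUPR1 -0.47 ± 0.40, both with intervals that hold 0.

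**Figure D1:**
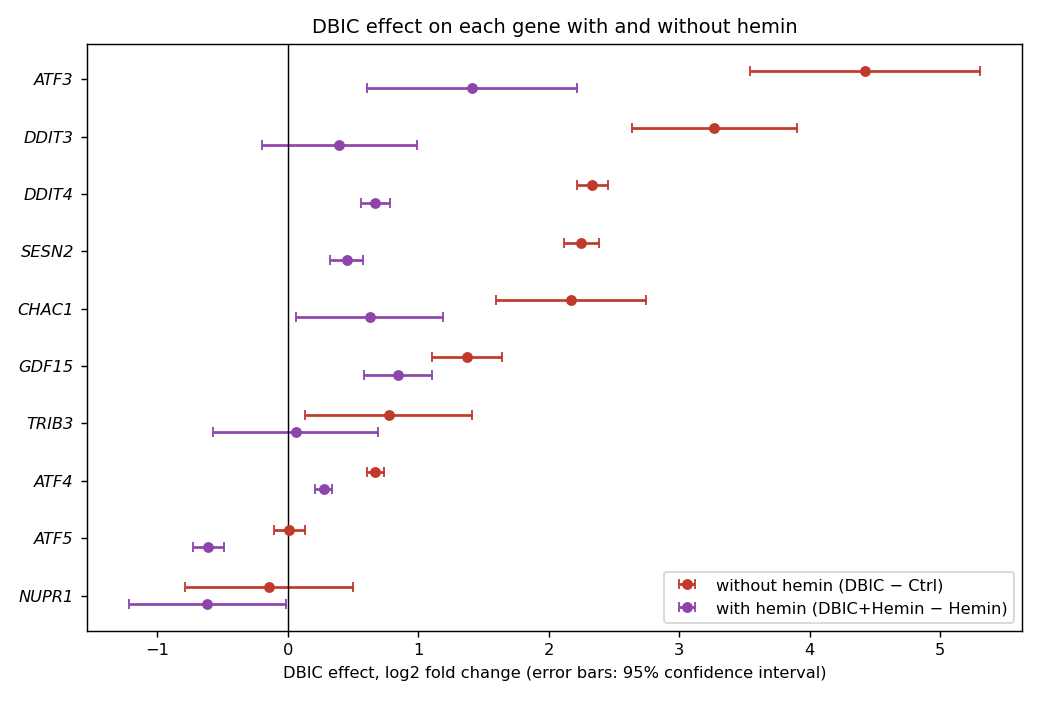
Log2 fold change of each gene for DBIC against Ctrl and for DBIC+Hemin against Hemin (x axis), with 95% confidence intervals as error bars, from 3 libraries a group. ATF3 moves from 4.42 to 1.41, DDIT3 from 3.27 to 0.40 and DDIT4 from 2.33 to 0.67, whereas the intervals of TRIB3 and NUPR1 overlap.

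Libraries of a group agreed to different degrees from gene to gene. The biological coefficient of variation fitted by edgeR was 0.287 for ATF3, 0.238 for TRIB3, 0.221 for DDIT3 and 0.213 for CHAC1, which is 1.64 to 2.63 times the value of genes of like abundance. For ATF4 it was 0.0444, for DDIT4 0.0578, for ATF5 0.0655 and for SESN2 0.0659, all below the trend. TRIB3 spread in all 3 treated groups, from 122 to 237 CPM, whereas Ctrl held to between 85.1 and 95.2.

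The patterns of the genes were compared by the root mean square distance of their 3 log2 differences from Ctrl, as a description. The closest pair among the 10 was CHAC1 and DDIT4, at 0.114, followed by DDIT4 and SESN2 at 0.377. No error was carried into these distances. The log2 differences of CHAC1 have standard errors of 0.25 to 0.26, above 0.114, so close ranks here and below are not separated. Among all other genes of at least 1 CPM, those nearest to DDIT4 were DUSP5, TRAF1 and RND1 (distances 0.084 to 0.131), and those nearest to CHAC1 were JUND, DUSP5 and KLF5 (0.055 to 0.141). SESN2 had AREG, PPP1R15A and LURAP1L nearest (0.130 to 0.175), and ATF3 had DUSP8, IL6 and BIRC3 (0.153 to 0.526). DDIT3 had ZC3H12A, INHBA and SPECC1L-ADORA2A nearest (0.286 to 0.335), and TRIB3 had RAB39B, BCL2L11 and CLDN4 (0.120 to 0.182). ATF4 lay within 0.029 of FAM107B, TDG and DAPK3, and ATF5 within 0.064 of KMT5B, ZNF579 and LPP. GDF15 was nearest to ZNF93, BEST1 and DDX47 (0.189 to 0.316) and NUPR1 to AC010132.3, RHNO1 and ETFBKMT (0.103 to 0.121).

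Other genes of this pathway, genes of other pathways and paralogs of the 10 genes were taken from 9 lists, described by counts and medians. Their counts stand beside the shares of all genes, which were 20.0% higher and 17.2% lower with DBIC and 13.5% higher and 18.4% lower when hemin was added to DBIC, and no list was tested against them. Of 9 upstream genes of the integrated stress response, 3 rose and 2 fell in DBIC against Ctrl, with a median log2 fold change of -0.015, which is near the shares of all genes and is not read as a result about the list. PPP1R15A, which encodes the eIF2 phosphatase subunit GADD34, rose by 2.29, EIF2AK3 (the kinase PERK) by 1.13 and PPP1R15B (the constitutive subunit CReP) by 1.08. The other kinase genes called were EIF2AK4 (GCN2), which fell by 0.36, and EIF2AK2 (PKR), which fell by 0.26, while EIF2AK1, the heme-regulated kinase HRI, stood at -0.084 and was not called. PPP1R15A, EIF2AK3 and PPP1R15B were also the 3 of the list with an interaction called below 0, at -1.79, -0.77 and -0.84. The 1 called above 0 was EIF2AK4, at 0.24, beside 10.2% of all genes called below 0 and 6.40% above.

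Of 20 metabolic and other genes that ATF4 is known to drive, among them genes of amino acid supply, 11 rose and 1 fell with DBIC, at a median log2 fold change of 0.16. CTH, an enzyme of cysteine synthesis, rose by 1.23, the amino acid transporter SLC38A2 by 0.95, the secreted glycoprotein STC2 by 0.90 and the C/EBP factor CEBPG by 0.83. SLC7A1 rose by 0.13 and PHGDH, the first enzyme of serine synthesis, fell by 0.097. With hemin alone, 12 of the 20 rose and 0 fell, at a median of 0.27, and with both agents 15 rose against Ctrl, at a median of 0.28, beside 1.47% and 5.66% of all genes called higher. Adding hemin to DBIC raised 10 and lowered 4 (median 0.13), beside 13.5% and 18.4% of all genes. STC2 stood at 0.90 with DBIC, 0.89 with hemin and 0.93 with both, and ASNS, the asparagine synthetase, rose by 0.31 with DBIC, 0.34 with hemin and 0.53 with both.

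Of 10 partners and death genes linked to CHOP, 6 rose and 1 fell with DBIC (median 0.79), and 7 were lower and 1 higher when hemin was added (median -0.37). CEBPB, a partner of CHOP, rose by 1.89, the BH3-only genes PMAIP1 and BBC3 by 1.42 and 1.12, and CEBPD by 1.19. TNFRSF10B, the death receptor DR5, rose by 0.68, and the oxidase ERO1A fell by 0.24. Of 18 genes linked to ATF6 and XBP1, the other arms of the unfolded protein response, 14 rose and 0 fell with DBIC (median 0.58). This list holds ATF6, XBP1 and ERN1 themselves beside targets. When hemin was added to DBIC, 13 of the 18 were lower and 1 higher (median -0.48). The co-chaperone DNAJB9 rose by 2.45, HERPUD1 by 2.27, the chaperone HSPA5 (BiP) by 1.60 and XBP1 by 1.57, while PDIA4 rose by 0.11 and ATF6 by 0.085. With hemin alone, 1 of these 18 was called, ERN1, at 0.39, beside 1.47% of all genes called higher and 2.59% lower.

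Since DDIT4, SESN2, ATF3 and GDF15 are also reached by other pathways, lists of these were counted as well. Of 14 immediate early genes, 12 rose and 0 fell with DBIC, at a median log2 fold change of 3.38, and 12 were lower when hemin was added, at a median of -2.95. EGR2 rose by 7.09, EGR1 by 6.51, JUN by 5.61 and FOS by 5.52, and the smallest called changes were those of KLF6, 1.69, and FOSL1, 0.98. With both agents against Hemin, 11 of the 14 were called higher, at a median of 0.82, beside 3.71% of all genes. Of 17 p53 targets, 5 rose and 6 fell with DBIC (median -0.062), beside 20.0% and 17.2% of all genes, which is not read as a result about the list. GADD45A rose by 2.37, PLK3 by 1.94, BTG2 by 1.01 and AEN by 0.66, whereas TP53I3 fell by 0.20 and FDXR by 0.22. Of 12 hypoxia and glucocorticoid genes, 6 rose and 0 fell (median 0.35), with VEGFA at 1.19, PER1 at 1.02, TSC22D3 at 0.87, ANKRD37 at 0.84, ADM at 0.32 and KDM3A at 0.25. Their part in the changes of the 10 genes was not tested.

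Of 9 targets of NRF2 and BACH1, the factors that answer oxidants and heme, 1 rose and 1 fell with DBIC, FTH1 by 0.29 and NQO1 at -0.18, and 8 rose when hemin was added to DBIC (median 0.33). Of 13 paralogs of the 10 genes, 11 were tested, and 4 rose and 3 fell with DBIC, at a median of 0.12, which is likewise not read as a result about the list. TRIB1 rose by 1.46, and ATF7, ATF2 and ATF1 rose by 0.39, 0.38 and 0.34. SESN1 and TRIB2 both fell by 0.37 and CHAC2 fell by 0.21, in the opposite direction to SESN2 and CHAC1.

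**Figure D2:**
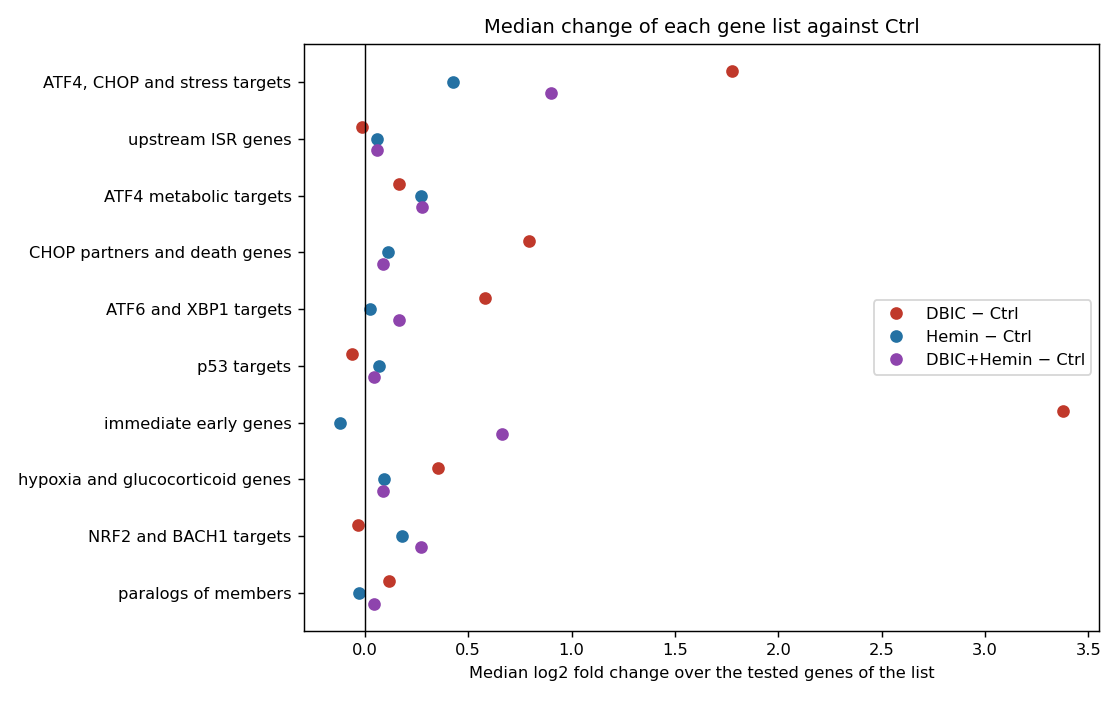
Median log2 fold change against Ctrl (x axis) over the tested genes of each list, for DBIC, hemin and both; each point is 1 median and has no error bar. The 10 stress genes (1.77) and the immediate early genes (3.38) have the largest medians with DBIC alone. Genes and lists were chosen with earlier results of these data known, so this order is a description only. The median of the ATF4 metabolic targets is 0.27 with hemin and 0.16 with DBIC. The difference between these medians was not tested, and single genes of that list differ in both directions.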

How the data were processed

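The authors deposited 1 table of 20263 genes with 3 values per library: the raw read count, left unscaled by the authors, and their TPM and FPKM values, both corrected for length, TPM also to a fixed library sum and FPKM for depth. Per the labels, RNA was extracted with Trizol, and the submitters' processing notes name Trim Galore, Subread, featureCounts and hg38, with versions not given in the sources used here.

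Counts were filtered by filterByExpr of edgeR 4.0.16 (R 4.3.3), scaled by TMM and fitted with 1 mean per group over 12 libraries (8 residual degrees of freedom). Quasi-likelihood F tests gave 6 comparisons, with Benjamini-Hochberg adjustment over 14287 genes. Standard errors were obtained by dividing the size of each log2 fold change by the root of its F statistic. Totals of 37951275 to 44358912 counts put 3 counts, the limit that a count of 0 allows, below 1 CPM, and this covers counting error only. The TPM values gave levels between genes and, with limma 3.58.1, an alternative added after seeing the data. The FPKM values gave only the implied lengths. The code was tested on simulated data.

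The 10 genes and the lists were chosen with earlier results of these data known. The lists share CEBPG, SLC7A11 and SESN1. Named from each list were up to 4 genes called in DBIC against Ctrl with the largest change and up to 2 with the smallest, and, for each of the 10, the 3 nearest other genes. EIF2AK1, ASNS, ERN1 and further values of named genes were added after seeing the data. DELE1 is KIAA0141 in the table. Alternatives were upper-quartile scaling, total counts, DESeq2 1.42.0, no filter, at least 10 counts in every library, only the groups compared, a replicate block, a log2 threshold of 1, and each library left out in turn.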

Additional observations from a re-analysis of the deposited data

Results flagged for a closer look

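For 7 of the 10 genes the effect of DBIC with hemin differed from the effect without hemin. The test was the interaction term of the edgeR fit (adjusted over 14287 genes). Of all genes, 10.2% were called below 0 by this term and 6.40% above. The difference, on the log2 scale, was -3.01 for ATF3, -2.87 for DDIT3, -1.80 for SESN2, -1.66 for DDIT4, -1.54 for CHAC1, -0.62 for ATF5 and -0.40 for ATF4. The ATF4 value was -0.064 in TPM and was not called there.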

How the results depend on the processing

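The direction and the call of the single genes held in 1122 of the alternative values, a call was gained in 27 and lost in 28, and the direction turned in 13. Of the counts of called genes, Hemin against Ctrl gave 3, but 5 with DESeq2 and 0 with a log2 fold change of at least 1. Over all genes, this comparison called 580 of 14287 in the main fit, 863 of 13165 with DESeq2 and 0.112% with that threshold. With that threshold, DBIC+Hemin against Hemin gave 1 and DBIC+Hemin against Ctrl gave 4, beside 0.322% and 0.574% of all genes. Leaving out 1 library gave 7 to 8 called genes in DBIC against Ctrl and in the interaction, and 7 in DBIC+Hemin against DBIC. It gave 2 to 4 in Hemin against Ctrl, 5 to 6 in DBIC+Hemin against Hemin and 5 to 8 in DBIC+Hemin against Ctrl. Of 14416 to 14455 genes tested, these fits called 4519 to 5416 in DBIC against Ctrl and 1952 to 2313 in the interaction. They called 3772 to 4438 in DBIC+Hemin against DBIC and 272 to 623 in Hemin against Ctrl. The ranges were 612 to 934 in DBIC+Hemin against Hemin and 1218 to 1758 in DBIC+Hemin against Ctrl. The labels do not say whether the replicate numbers pair the samples. Same-numbered libraries of different groups had correlations of deviations of -0.046 to 0.081, and other pairs -0.070 to 0.076. With 3 libraries per group these values cannot settle it. With a replicate block, DBIC against Ctrl gave 8 called genes (TRIB3 gained, log2 fold change 0.72) and DBIC+Hemin against DBIC gave 7. Hemin against Ctrl gave 3 (ATF4 lost, TRIB3 gained), DBIC+Hemin against Hemin 6, DBIC+Hemin against Ctrl 7 and the interaction 7. Of all 14287 genes, the block called 5084, 4262, 408, 776, 1500 and 2078, in the same order.

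Directions that turned were those of values near 0 or of low counts, none of them called. ATF5 in DBIC against Ctrl was -0.048 with upper-quartile scaling and -0.0085 with total counts, and -0.0015 to 0.032 with 1 library left out. With 1 library left out, ATF5 in Hemin against Ctrl was -0.069 to 0.0098, CHAC1 in Hemin against Ctrl -0.14 to 0.36, NUPR1 in DBIC against Ctrl -0.48 to 0.052 and TRIB3 in DBIC+Hemin against Hemin -0.12 to 0.26. In TPM, NUPR1 was -0.30 in Hemin against Ctrl, -0.31 in DBIC+Hemin against Ctrl and 0.37 in the interaction. The cause was not tested. Depth limits NUPR1, with 14 to 43 counts per library.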
